A study of Mus musculus with 40 samples.

Results

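AMPA-type glutamate receptors and the proteins that assemble, slow or cluster them at synapses were followed in mouse cortex after repeated head impact with and without memantine. The members were named by gene: the subunits Gria1, Gria2, Gria3 and Gria4, the neuronal pentraxins Nptx1 and Nptx2 with their receptor Nptxr, and the auxiliary subunits Cacng3, Cacng8 and Cnih2. Of these 10 genes, 9 were listed, with 18 of the 6831 transcripts in the table, which hold 5849 gene symbols. Cacng8 is not among the listed transcripts and was not analysed here.

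Each AMPA receptor is a tetramer of GluA subunits, and a GluA2 subunit made from edited Gria2 messenger RNA keeps the channel closed to calcium. The subunits exist in flip and flop splice forms, which differ in a short part of the ligand-binding region and in how fast the channel desensitises. Secreted neuronal pentraxins gather the receptors at excitatory synapses, Nptx2 being a gene that neuronal activity induces, while Cacng3 (TARP gamma-3) and Cnih2 (cornichon-2) travel with the receptor and slow its kinetics. Memantine is a blocker of the open channel of NMDA receptors, the other main class of ionotropic glutamate receptor in the cortex.

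Dissected cortex of male C57BL/6 mice, 12 weeks old, was sequenced as bulk RNA. The animals had gone through repeated sessions in which they received either high-frequency head impact (HF-HI) or a sham procedure, the last of them 24 h earlier. Both drugs were crossed with both procedures, giving 4 groups of 10 libraries each. Memantine or saline was given intraperitoneally 1 h before each session, and every group, sham included, went through isoflurane anaesthesia and the same handling without or with the impact. The 40 libraries held between 13322404 and 17529644 reads in the listed transcripts. The labels do not state that each library is a separate animal, so p-values measure the spread between these libraries. In bulk tissue, fewer cells of a type and less RNA per cell cannot be told apart.

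Marker genes in the table were counted beside the tissue label. The lowest mean count of any transcript in the table was 549.2, so a marker can be absent because its count is low. These counts therefore cannot settle which tissue was dissected. Cortical glutamatergic neuron markers were present for 9 of 11 listed genes, interneuron markers for 8 of 11, and astrocyte markers for 9 of 10. Striatal markers were present too, for 13 of 21 listed symbols, which hold Drd1 and Penk under an older symbol as well. Hippocampal markers were present for 1 of 10 genes, thalamic markers for 3 of 7, microglial markers for 5 of 11, endothelial markers for 2 of 7 and blood markers for 0 of 5. The single choroid plexus marker of 6 that was listed ran from 74.5 to 22031 normalised reads over the 40 libraries.

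In the mm10 assembly (GRCm38) Gria1 lies at chr11:57011571-57330244, Gria2 at chr3:80681450-80804227, Gria3 at chrX:41400819-41678601 and Gria4 at chr9:4417893-4796234. The pentraxins lie at chr11:119538719-119547820 (Nptx1) and chr5:144545887-144557478 (Nptx2), and the pentraxin receptor at chr15:79786351-79804709. Cacng3 lies at chr7:122671744-122769393 and Cnih2 at chr19:5092868-5098521. Gria1, Gria2 and Gria4 had 3 listed transcripts each and Gria3 had 4, while the other members had 1.

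The flip and flop exons are shown because they tell apart the Gria1 forms described below and define the Gria2 flip form. Both are coding exons of the same length, the flop exon comes before the flip exon, and a transcript normally carries one of them. Sequences are from GRCm38 at the exons of the GENCODE M21 gene models, printed along the coding strand. Capitals mark bases that differ between the flop and the flip exon of the same gene, which were 36 in Gria1 and 36 in Gria2. These changed 8 encoded residues in Gria1 and 9 in Gria2. The Gria1 exons lie on the plus strand at chr11:57309769-57309883 (flop) and chr11:57310608-57310722 (flip), and the Gria2 exons on the minus strand at chr3:80691320-80691434 (flop) and chr3:80690404-80690518 (flip).
Gria1 flop: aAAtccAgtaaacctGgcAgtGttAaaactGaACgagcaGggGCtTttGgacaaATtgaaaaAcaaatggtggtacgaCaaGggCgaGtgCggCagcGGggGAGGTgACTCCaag
Gria1 flip: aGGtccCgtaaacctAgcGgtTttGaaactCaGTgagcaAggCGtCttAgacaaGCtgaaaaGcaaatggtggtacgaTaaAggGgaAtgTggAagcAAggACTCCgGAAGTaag
Gria2 flop: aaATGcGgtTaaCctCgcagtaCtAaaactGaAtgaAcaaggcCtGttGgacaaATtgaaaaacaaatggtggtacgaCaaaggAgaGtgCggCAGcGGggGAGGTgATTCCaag
Gria2 flip: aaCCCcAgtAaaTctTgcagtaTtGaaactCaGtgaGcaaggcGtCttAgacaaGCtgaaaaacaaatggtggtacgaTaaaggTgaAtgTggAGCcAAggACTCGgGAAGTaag

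Of the Gria1 transcripts, NM_008165 carries the flop exon, and NM_001113325 and NM_001252403 carry the flip exon. Of the Gria2 transcripts, NM_001083806 carries the flip exon. The exon content of NM_013540 and NM_001039195 could not be resolved from the gene models used, so they are named by transcript only. Gria3 NM_001290451 and Gria4 NM_001113180 are flop forms, and Gria4 NM_019691 is a flip form. By their paired gene models, Gria3 NR_104053 carries both exons and Gria4 NM_001113181 carries neither. In saline sham they averaged 30.2% of Gria3 counts and 24.7% of Gria4 counts. The exon content of Gria3 NM_016886 and NM_001281929 could not be resolved. The Gria3 and Gria4 sums therefore hold more than flip and flop forms.

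The deposited values are variance-stabilised, log2-like numbers per transcript. They were turned back into normalised read counts, and for each gene the counts of its transcripts were added into a sum. Changes of sums are log2 ratios of counts plus 1 with a standard error, and changes of transcripts are given on the deposited scale, which is compressed at low counts. A share is a transcript's percentage of the counts of its gene. Every fit was a limma model over all features and all 40 libraries. A feature is called where its unadjusted p-value was under 0.05, and Benjamini-Hochberg adjusted p-values are given beside it. Counts are not divided by transcript length, so levels are not compared between genes.

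**Figure D1:**
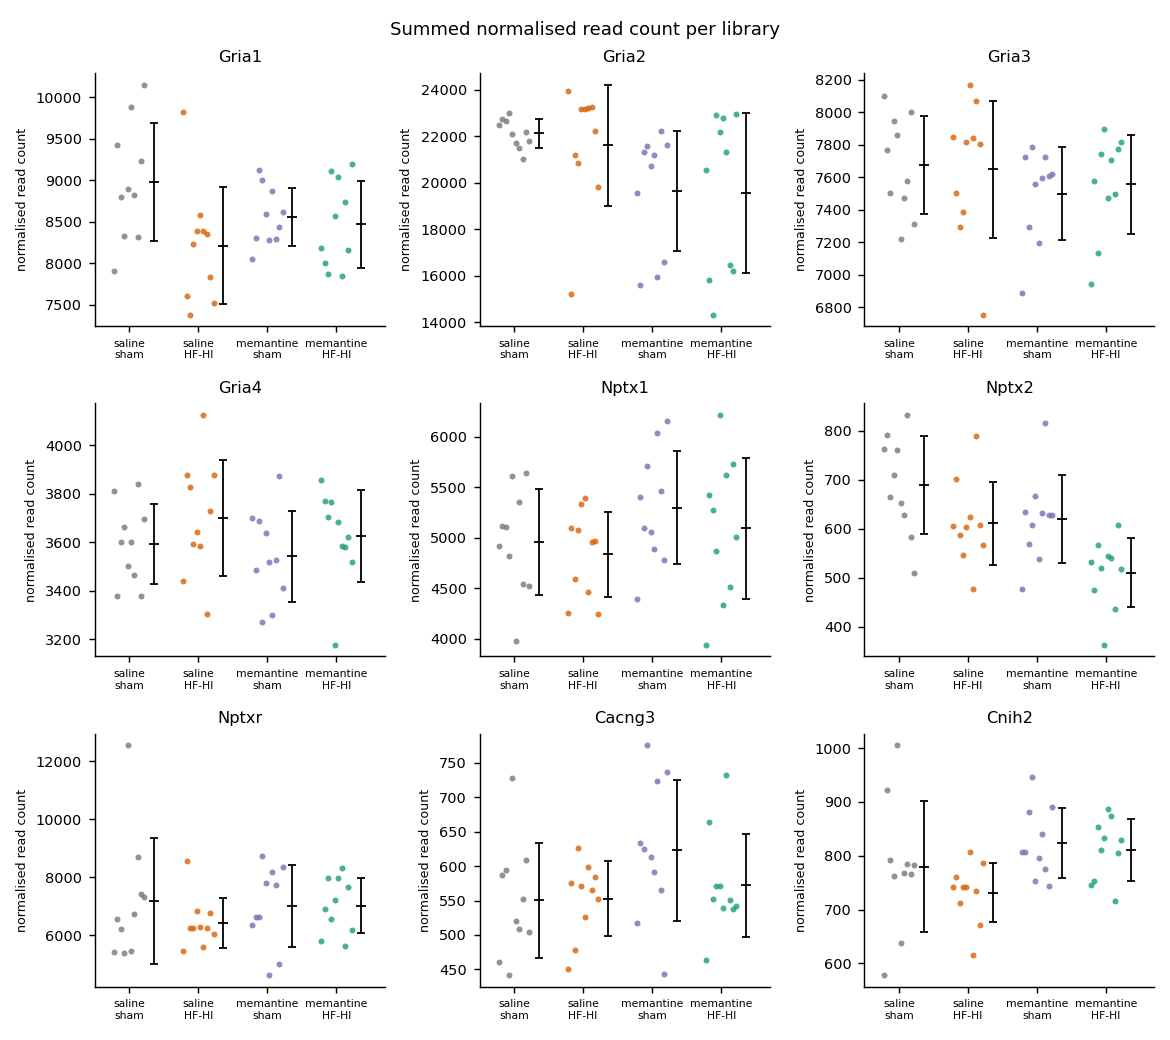
Summed normalised read count (y axis, linear, not starting at 0) of the 9 listed members in each library, by group (x axis). Points are single libraries, 10 per group, and bars are the mean and SD. Gria1 is lowest in saline HF-HI (mean 8212), Nptx2 is lowest in memantine HF-HI (mean 510.2), and Gria2 falls into separate upper and lower bands outside the saline sham group.

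Gria2 libraries stood apart in a way that touches every Gria2 result. The Gria2 sum lay between 14321 and 16565 in 8 libraries and between 19556 and 23946 in the other 32, with nothing between. The low band held 0 of the 10 saline sham libraries, 1 saline HF-HI library (replicate 2, at 15206), 3 memantine sham libraries (replicates 2, 7 and 9) and 4 memantine HF-HI libraries (replicates 2, 3, 8 and 9). Outside the low band, sums ran from 21006 to 22979 (sham) and 19812 to 23946 (HF-HI) with saline, and from 19556 to 22202 (sham) and 20556 to 22942 (HF-HI) with memantine.

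The low band went with another mixture of Gria2 transcripts. The flip form NM_001083806 was counted 3686 to 4972 times in the 8 low libraries against 7447 to 10856 in the 32 others, and NM_013540 was counted 4147 to 5672 times against 6750 to 10010. NM_001039195 went the other way, with 6194 to 6967 against 3284 to 6029, so that it made up 37.9% to 45.8% of Gria2 counts in the low libraries and 16.6% to 28.4% in the others. None of the 3 transcripts overlapped between the bands in its count, but they make up the sum that set the bands. How many of all features overlap between these libraries was not counted, so these ranges have no baseline. The other 8 member sums did overlap between the bands: Gria1 ran from 7611 to 8867 in the low libraries and from 7383 to 10148 in the others, and Gria3 from 7132 to 7775 and from 6755 to 8169. Summed reads of the listed transcripts overlapped as well, at 13976092 to 16851261 in the low libraries. The bands were seen in the Gria2 values themselves, so they are described by ranges and no test was made between them.

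**Figure D2:**
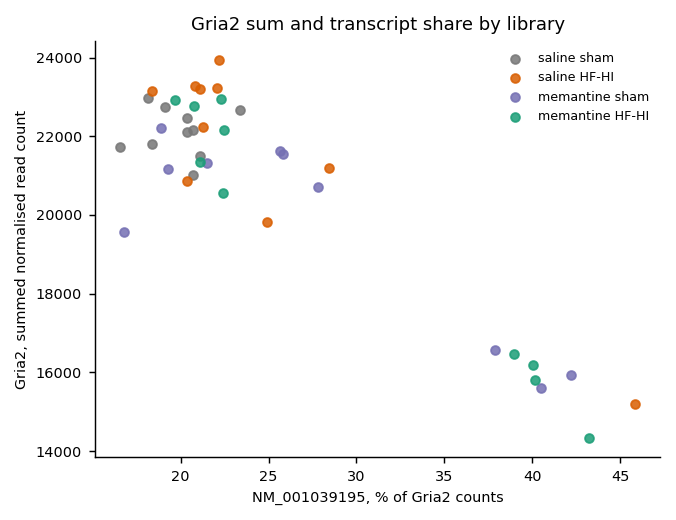
Gria2 summed normalised read count (y axis) against the share of transcript NM_001039195 in the Gria2 counts (x axis, %), with 1 point per library coloured by group. The 8 libraries with sums of 14321 to 16565 have shares of 37.9% or more, and the other 32, with sums of 19556 or more, have shares of 28.4% or less.

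The first comparison asked what HF-HI did to these genes without drug. In saline-treated mice the Gria1 sum, the GluA1 subunit of the receptor, fell by 0.13 on the log2 scale after HF-HI, while Gria2, Gria3 and Gria4 did not pass the test. Gria1 ran from 7913 through a median of 8857 to 10148 normalised reads in saline sham, and from 7383 through 8297 to 9816 in saline HF-HI. In all, 9 of the impacted libraries lay under the sham mean and 4 lay under the lowest sham library, yet the groups overlapped because 1 impacted library reached 9816. The means were 8976 ± 707 (SD, n = 10) and 8212 ± 704 (SD, n = 10), a change of -8.51%. The log2 change was -0.13 ± 0.04 (SE, 95% confidence interval -0.22 to -0.04), with p = 0.00479, an adjusted p = 0.241 by limma and p = 0.0248 in a two-sided permutation test of mean log2 sums. It was the 1 member of 9 called among the sums, where 10.7% of all 5875 rows were called. No member sum had an adjusted p-value under 0.1 by limma, against 0.357% of all rows.

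All 3 forms of Gria1 were lower on average after impact with saline, but no single form was called. The flop transcript NM_008165 averaged 5321 ± 418 (SD, n = 10) reads in saline sham and 4921 ± 699 (SD, n = 10) in saline HF-HI (p = 0.107 by limma). The flip transcripts NM_001113325 (2498 ± 1044 and 2244 ± 574) and NM_001252403 (1157 ± 714 and 1047 ± 822) were also lower on average, with p = 0.567 and p = 0.701 by limma. Shares of the flop form were 59.5% in sham and 59.9% in impacted libraries (p = 0.862 by limma). Across all forms of all members, 0 of 18 transcripts were called, where 9.53% of the 6831 transcripts were called (0.205% at an adjusted p-value under 0.1, by limma), and 0 of 13 shares, where 4.72% of the 1674 shares were called. Gria2 NM_001039195 lay nearest to the threshold. It ran from 3602 through a median of 4428 to 5293 reads in saline sham and from 4254 through 4910 to 6967 in saline HF-HI, where the highest value was that of the library in the low Gria2 band. Its change was 0.15 ± 0.07 (SE) on the deposited scale, with p = 0.05002, adjusted p = 0.524 by limma and p = 0.0135 in a two-sided permutation test. The count of called transcripts was 1 in place of 0 in 7 of 9 alternative fits and in 11 of the 20 fits that left out a library.

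Several marker lists moved in the same comparison. Of the 13 striatal markers in the table, 10 were lower and 0 higher in saline HF-HI, and their summed counts ran from 36879 to 59503 in saline sham and from 37731 to 51514 in saline HF-HI. Over the 40 libraries, with group means removed, the mean of the striatal markers and the Gria1 sum had a Pearson correlation of 0.54. With the striatal mean as a covariate the Gria1 change was -0.08, with p = 0.0610 and adjusted p = 0.828 by limma. Drd2, Adora2a and Tac1, which also define striatal neurons, are not among the listed transcripts. Interneuron markers were higher for 1 and lower for 4 of 8 genes, with Pvalb at 0.16, Reln at -0.19, Sst at -0.19 and Slc32a1 at -0.18 on the log2 scale. Reln (p = 0.000118, adjusted p = 0.0671 by limma) was the 1 interneuron marker with an adjusted p-value under 0.1. None of the 8 oligodendrocyte markers was called, and their mean had a correlation of -0.67 with Gria1. The part of these cell types in the Gria1 change was not tested beyond these values. Without saline HF-HI replicate 1, the library at 9816, the Gria1 change was -0.16 with an adjusted p = 0.0501 by limma, against 0.241 with all 40 libraries. It was the smallest of 1506 adjusted p-values for member sums over all comparisons and fits, and 3 of them were under 0.1.

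The pentraxins and auxiliary subunits did not pass the test in this comparison. Nptx2, the activity-induced pentraxin, ran from 511 through 688 to 833 reads in saline sham and from 478 through 605 to 789 in saline HF-HI, a log2 change of -0.17 ± 0.09 (SE, 95% confidence interval -0.36 to 0.01) with p = 0.0661. Nptx1 averaged 4960 ± 522 and 4837 ± 421 reads (p = 0.637), and Nptxr, the membrane-bound pentraxin receptor, 7176 ± 2167 and 6435 ± 868 (p = 0.331). Cacng3 averaged 551 ± 84 and 553 ± 54 reads (p = 0.878), and Cnih2 780 ± 122 and 731 ± 55 (p = 0.225). The widest of these spreads, that of Nptxr in saline sham, included 1 library at 12564.

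The same impact was then compared in memantine-treated mice. Here Nptx2 fell by 0.28 on the log2 scale and the flop form of Gria1 fell as well, while the Gria1 sum changed by -0.02 with p = 0.715. Nptx2 ran from 477 through a median of 629 to 817 reads in memantine sham, and from 363 through 525.8 to 609 in memantine HF-HI. All 10 impacted libraries lay under the sham mean and 3 lay under the lowest sham library, with the remaining ranges overlapping. The means were 620 ± 89 (SD, n = 10) and 510.2 ± 70.1 (SD, n = 10). The log2 change was -0.28 ± 0.09 (SE, 95% confidence interval -0.47 to -0.10), with p = 0.00373, adjusted p = 0.902 by limma and p = 0.00457 in a two-sided permutation test. Nptx2 was the 1 called sum of 9 members, where 4.37% of all rows were called. No member had an adjusted p-value under 0.1 by limma, against 0.017% of all sums and 0.0146% of all transcripts.

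For Gria1, the flop form and its share of Gria1 counts fell in this comparison. The flop transcript NM_008165 ran from 3925 through 5407 to 6117 reads in memantine sham and from 4009 through 4740 to 5758 in memantine HF-HI, with 9 of 10 impacted libraries under the sham mean and overlapping ranges. Its change was -0.12 ± 0.05 (SE) on the deposited scale and -0.17 ± 0.07 (SE) as a log2 ratio of counts, with p = 0.0246, adjusted p = 0.968 by limma and p = 0.0359 in a two-sided permutation test. Together with Nptx2 NM_016789 it made 2 of 18 member transcripts called, where 4.61% of all transcripts were called. As a share of Gria1 counts, the flop form was 62.5% ± 7.5 (SD, n = 10) with sham and 55.9% ± 4.1 (SD, n = 10) with HF-HI. The log2 ratio of flop to the other forms changed by -0.41 ± 0.17 (SE), with p = 0.0185 and adjusted p = 0.892 by limma, the 1 member share of 13 called where 4.96% of all shares were called.

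The flip form NM_001252403 stood on the other side of that shift without passing the test. It averaged 1013 ± 707 (SD, n = 10) reads in memantine sham and 1638 ± 563 (SD, n = 10) in memantine HF-HI, and 9 of 10 impacted libraries were above the sham mean. Its share was 11.8% and 19.5% (p = 0.0709 by limma), and the other flip form, NM_001113325, was at 25.7% and 24.6% (p = 0.600 by limma). The counting step divides reads that match several forms of a gene among them, so the counts of forms depend on each other. Within groups, NM_001252403 had a correlation of -0.68 with NM_001113325 and of -0.45 with NM_008165 over 40 libraries. The flop call was lost without memantine sham replicate 1 or 3 or memantine HF-HI replicate 7 (highest p = 0.0562), and the share call without memantine sham replicate 1 (p = 0.0576).

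**Figure D3:**
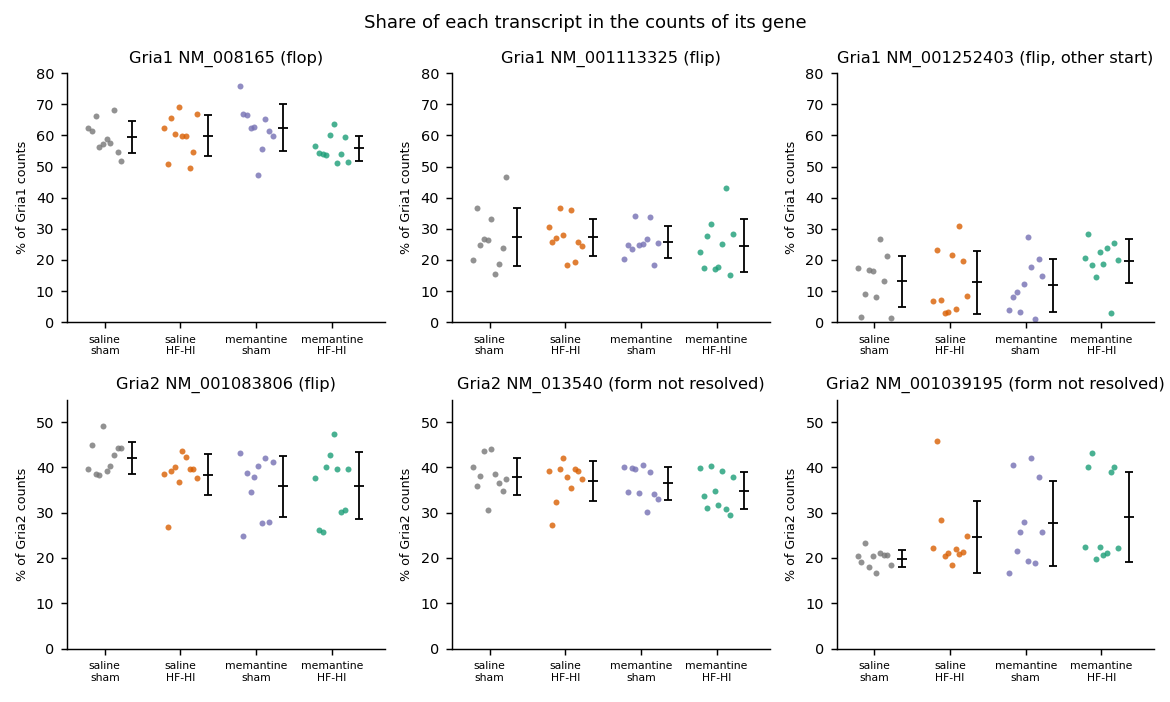
Share of each transcript in the normalised read counts of its gene (y axis, %) for the 3 Gria1 forms (top) and the 3 Gria2 forms (bottom), by group. Points are libraries, 10 per group, with the mean and SD. The flop form NM_008165 averages 62.5% (sham) and 55.9% (HF-HI) of Gria1 under memantine, and the share of NM_001039195 in Gria2 reaches 45.8% outside saline sham, where it stays at or below 23.4%.

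The remaining members did not pass the test between memantine HF-HI and memantine sham. Gria2 averaged 19547 ± 3442 and 19626 ± 2581 reads (p = 0.858), both groups holding libraries of the low band. Gria3 averaged 7555 ± 307 and 7498 ± 286 (p = 0.710) and Gria4 3627 ± 188 and 3542 ± 188 (p = 0.336). The other pentraxins averaged 5093 ± 697 and 5298 ± 562 (Nptx1, p = 0.385) and 7025 ± 962 and 7007 ± 1403 (Nptxr, p = 0.870). Cacng3 averaged 572 ± 75 and 623 ± 103 (p = 0.203) and Cnih2 811 ± 57 and 824 ± 65 (p = 0.728). None of the 13 striatal markers was called in this comparison. Of the astrocyte markers 2 of 9 were higher, Gfap (0.45) and Gja1 (0.10), and of the microglial markers 1 of 5, C1qa (0.19). Within groups, Nptx2 had a correlation of -0.23 with the astrocyte marker mean and of 0.13 with the microglial marker mean, and their part in its change was not tested.

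Among impacted mice, memantine was compared with saline. Nptx2 was lower with memantine by 0.26 on the log2 scale and Cnih2, an auxiliary subunit that slows AMPA receptor kinetics, was higher by 0.15. All 10 memantine HF-HI libraries lay under the saline HF-HI mean of 611 ± 85 (SD, n = 10) reads for Nptx2, and 3 lay under its lowest library of 478. The log2 change was -0.26 ± 0.09 (SE, 95% confidence interval -0.45 to -0.08), with p = 0.00667, adjusted p = 0.996 by limma and p = 0.00711 in a two-sided permutation test. The memantine HF-HI group is the same here and in the comparison before, so the changes of Nptx2 in both share those libraries. With striatal marker mean as a covariate they were -0.29 (p = 0.00280) against memantine sham and -0.23 (p = 0.0202) against saline HF-HI.

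Cnih2 ran from 615 through a median of 742 to 807 reads in saline HF-HI and from 717 through 820.0 to 887 in memantine HF-HI. In all, 9 of the memantine libraries were above the saline mean and 6 were above the highest saline library. The log2 change was 0.15 ± 0.07 (SE, 95% confidence interval 0.02 to 0.28), with p = 0.0275, adjusted p = 0.996 by limma and p = 0.00558 in a two-sided permutation test. These were 2 called sums of 9 members, where 3.68% of all rows were called, and 2 of 18 transcripts, where 3.91% were called. None of the 13 shares was called, where 5.02% were called, and no member had an adjusted p-value under 0.1 by limma, against 0.0% of all features.

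The Cnih2 call rested on a small margin. For the sum it was lost without saline HF-HI replicate 7 or memantine HF-HI replicate 6 (highest p = 0.0682 by limma). With the striatal marker mean as a covariate the change of the sum was 0.10 with p = 0.116. The call of the transcript NM_009920 was lost for those libraries and also without saline HF-HI replicate 9 or memantine HF-HI replicate 7 (highest p = 0.0696 by limma). In this comparison 2 of the 13 striatal markers were higher with memantine and 0 were lower, with summed counts of 34567 to 54690 in memantine HF-HI. The Gria1 sum, lowest in saline HF-HI, was 0.05 higher on the log2 scale in memantine HF-HI (95% confidence interval -0.04 to 0.13, p = 0.281). Gria2 was at -0.16 (p = 0.0731), Gria3 at -0.02 and Gria4 at -0.03. Nptx1 was at 0.07, Nptxr at 0.13 and Cacng3 at 0.05, with p-values from 0.310 to 0.605.

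**Figure D4:**
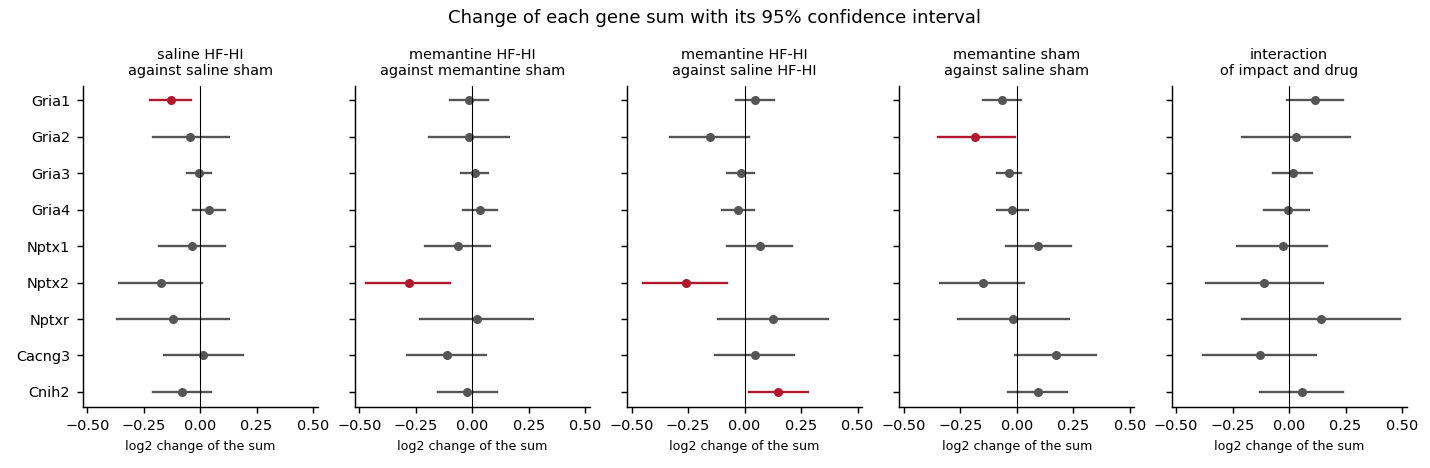
Log2 change of the sum of each member (x axis) with its 95% confidence interval in the 5 comparisons, 10 libraries per group. Red marks an unadjusted p-value under 0.05 by limma: Gria1 (-0.13) after impact with saline, Nptx2 after impact with memantine (-0.28) and between drugs after impact (-0.26), Cnih2 (0.15) between drugs after impact, and Gria2 (-0.18) between drugs in sham mice.

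In sham mice, where no impact was given, memantine was compared with saline, and Gria2 was the member that fell. The sum ran from 21006 through a median of 22138 to 22979 reads in saline sham and from 15610 through 20939 to 22202 in memantine sham. In all, 9 of the memantine libraries lay under the saline mean and 5 lay under the lowest saline library, 3 of them in the low band. The means were 22115 ± 620 (SD, n = 10) and 19626 ± 2581 (SD, n = 10). The log2 change was -0.18 ± 0.08 (SE, 95% confidence interval -0.35 to -0.01), with p = 0.0352, adjusted p = 0.581 by limma and p = 0.00186 in a two-sided permutation test. The call was lost without memantine sham replicate 2, 7 or 9, each of the low band, where the change was -0.15 or -0.16 and the highest p was 0.0852. It was 1 called sum of 9, where 7.9% of all rows were called, and no member had an adjusted p-value under 0.1 by limma, against 0.0511% of all sums and 0.0293% of all transcripts.

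The Gria2 forms moved in opposite directions between the sham groups. The flip form NM_001083806 averaged 9316 ± 780 (SD, n = 10) reads with saline and 7170 ± 2052 (SD, n = 10) with memantine, and 7 memantine libraries lay under the lowest saline library. Its change was -0.33 ± 0.14 (SE) on the deposited scale, with p = 0.0197, adjusted p = 0.616 by limma and p = 0.0019 in a two-sided permutation test. NM_001039195 was higher with memantine, at 5234 ± 1136 (SD, n = 10) against 4397 ± 440.0 (SD, n = 10) reads, with 6 libraries above the highest saline library. Its change was 0.16 ± 0.07 (SE), with p = 0.0369, adjusted p = 0.636 by limma and p = 0.0690 in a two-sided permutation test. NM_013540 averaged 7222 ± 1458 against 8402 ± 955 reads and was not called (p = 0.0949 by limma). These were 2 of 18 transcripts called, where 7.51% were called.

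Shares showed the same mixture of forms. NM_001039195 made up 19.9% ± 1.9 (SD, n = 10) of Gria2 counts in saline sham and 27.6% ± 9.4 (SD, n = 10) in memantine sham, a log2 change of its ratio to the other forms of 0.57 ± 0.25 (SE, p = 0.0283, adjusted p = 0.830 by limma). NM_001083806 made up 42.1% ± 3.5 (SD, n = 10) and 35.8% ± 6.7 (SD, n = 10), a change of -0.40 ± 0.17 (SE, p = 0.0210, adjusted p = 0.771 by limma). They were 2 of 13 shares called, where 5.26% were called. The NM_001083806 transcript call was lost without memantine sham replicate 2 (p = 0.0542), and its share call likewise (p = 0.0581). The NM_001039195 share call was lost without memantine sham replicate 2, 7 or 9 (highest p = 0.0720), and the transcript call was lost for 9 of the 20 libraries left out in turn (highest p = 0.0887).

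The other sums did not pass the test between the sham groups. Cacng3 came nearest, with 551 ± 84 reads with saline, 623 ± 103 with memantine and 8 of 10 memantine libraries above the saline mean (log2 change 0.17 ± 0.09, p = 0.0560). Nptx2 averaged 690 ± 100 and 620 ± 89 reads (p = 0.103), and Gria1 8976 ± 707 and 8558 ± 350 (p = 0.134). Gria3, Gria4, Nptx1, Nptxr and Cnih2 had p-values from 0.167 to 0.904. Cortical glutamatergic neuron markers were higher for 2 of 9 genes and interneuron markers lower for 2 of 8, with within-group correlations to Gria2 of -0.11 and -0.17, and their part in the Gria2 change was not tested.

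Whether memantine altered the response to impact was asked by the interaction, the impact change with memantine minus that with saline. No member was called among 18 transcripts, 9 sums or 13 shares, where 3.73%, 3.59% and 3.58% of all features were called. Gria1 had the smallest p-value among the sums, at 0.11 ± 0.06 (SE, 95% confidence interval -0.01 to 0.24, p = 0.0710). For Nptx2 the difference was -0.11 ± 0.13 (SE, 95% confidence interval -0.37 to 0.15, p = 0.403), so its call with memantine and its missed threshold with saline were not shown to differ. For the share of Gria1 flop it was -0.43 ± 0.23 (SE, p = 0.0701). For the flop transcript NM_008165 itself it was -0.035 ± 0.072 (SE, p = 0.629 by limma) on the deposited scale. The intervals include 0 in each case and also include changes as large as those called in single comparisons.

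For Gria3 and Gria4, subunits that join the others in cortical receptors, neither sum and none of their 7 transcripts was called in any of the 5 comparisons. Gria3 averaged 7674 ± 302, 7648 ± 420, 7498 ± 286 and 7555 ± 307 reads (SD, n = 10 each), the saline groups first and sham before HF-HI within each drug. In the same order Gria4 averaged 3594 ± 164, 3700 ± 239, 3542 ± 188 and 3627 ± 188 reads. Their forms were more variable than their sums: Gria4 flip NM_019691 had a coefficient of variation of 20.8% to 36.9% within groups, against 4.57% to 6.45% for the Gria4 sum. Within groups the flip and flop forms of Gria4 had a correlation of -0.72 over 40 libraries. Gria3 flop NM_001290451 averaged 3040 ± 340, 3221 ± 336, 3039 ± 313 and 3109 ± 279 reads.

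Proportions between members are given as descriptions of counts, without a test. Summed Gria counts over summed NMDA receptor subunit counts (the 5 listed Grin genes of 7) were 1.84 ± 0.09 (sham) and 1.82 ± 0.18 (HF-HI) with saline, and 1.69 ± 0.12 (sham) and 1.71 ± 0.19 (HF-HI) with memantine (SD, n = 10 each). All groups overlapped, with the lowest library at 1.38 and the highest at 2.10. In the low Gria2 band, memantine HF-HI replicates 2, 3, 8 and 9 were at 1.56, 1.377, 1.653 and 1.526. Memantine sham replicates 2, 7 and 9 of that band were at 1.495, 1.493 and 1.74, and saline HF-HI replicate 2 was at 1.452. The part of the band in the group means was not tested. The NMDA sum itself averaged 23094 ± 1121, 22710 ± 679, 23296 ± 1293 and 22955 ± 1025 reads, and none of its 5 genes was called in any comparison. Gria1 counts over Gria2 counts averaged 0.406 and 0.384 in the saline groups and 0.443 and 0.444 in the memantine groups, sham first, with the libraries of the low Gria2 band at the upper end. With saline, Nptx2 made up 5.51% ± 1.09 (sham) and 5.15% ± 0.63 (HF-HI) of pentraxin counts, and with memantine 4.85% ± 0.71 (sham) and 4.08% ± 0.65 (HF-HI).

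**Figure D5:**
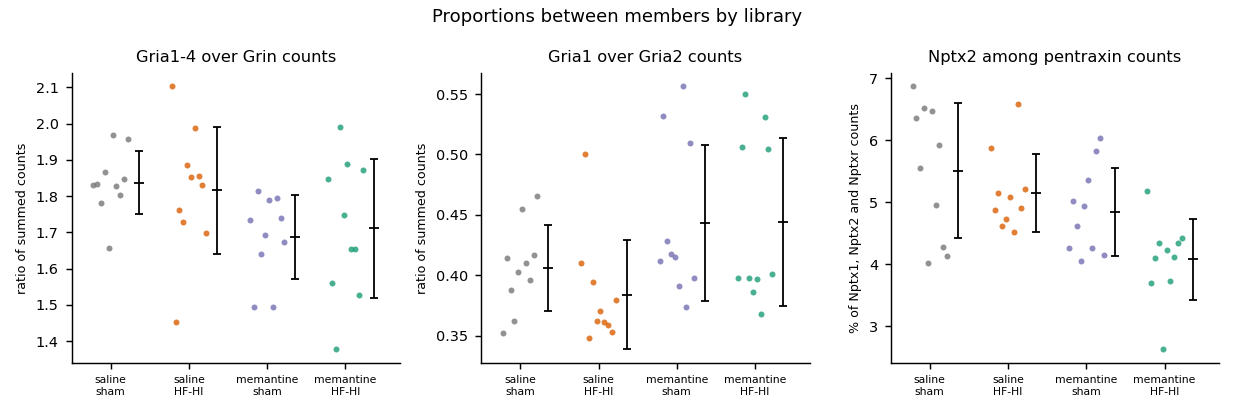
Ratio of summed Gria to summed Grin counts (left), ratio of Gria1 to Gria2 counts (middle) and Nptx2 as a percentage of pentraxin counts (right), in each library by group, with the mean and SD of 10 libraries. The y axes do not start at 0. The Nptx2 percentage averages 5.51 in saline sham and 4.08 in memantine HF-HI, with overlapping ranges.

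The wider AMPA receptor pathway was read from lists of genes, as sums and by counts. Of all rows, 5.14% were called higher and 5.58% lower after impact with saline, and 2.3% and 2.08% after impact with memantine. Between drugs, 1.43% were higher and 2.25% lower with memantine after impact, and 3.81% and 4.09% in sham mice, while the interaction was called higher for 1.82% and lower for 1.77%. Of 17 other auxiliary and assembly genes in the table, 1 was higher and 0 were lower after impact with saline, and their median change was -0.01, against 0.00 for all symbols. The one higher was Frrs1l, an assembly factor of the receptor (0.07, p = 0.0384). With memantine, impact gave 0 higher and 1 lower, Cacng2 (stargazin), at 676 against 725 reads (-0.10, p = 0.0471). Between drugs after impact 1 was higher, Gsg1l (0.20, p = 0.0357), and 1 lower, Nrn1 (neuritin), at 2055 ± 127 against 2296 ± 122 reads (-0.16, p = 0.00357). Between drugs in sham mice Prrt2 was higher (0.24, p = 0.00850) and Syndig1 lower (-0.14, p = 0.000838).

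Trafficking and anchoring genes gave 3 higher and 0 lower of 29 after impact with saline. The widest change was in Arc, the immediate-early gene whose protein promotes AMPA receptor endocytosis, at 3067 ± 1206 reads in saline sham and 4832 ± 1190 in saline HF-HI (0.69 ± 0.25, p = 0.00834, adjusted p = 0.296 by limma). Stx12 (0.06) and Myo5a (0.05) were the others. With memantine 0 of 29 were called after impact, between drugs after impact Stx12 was lower (-0.05), and in sham mice Napa (0.09) and Myo5a (0.04) were higher and Sdcbp lower (-0.07) with memantine. Of 14 receptor phosphorylation genes, kinases and phosphatases, 0 were called in 4 comparisons and 1, Ppp1ca (-0.09, p = 0.0147), was lower between drugs in sham mice. Neither of the 2 listed RNA editing genes was called in any comparison.

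Trans-synaptic organisers, mainly synaptic adhesion proteins and secreted partners such as Cbln2, gave 0 higher and 3 lower of 17 after impact with saline. They were Nrxn2, a presynaptic neurexin (-0.21, p = 0.00370), and the postsynaptic leucine-rich repeat proteins Lrrtm4 (-0.35, p = 0.00552) and Lrrtm1 (-0.15, p = 0.0386). Cbln2 was lower between drugs after impact, at 595 ± 218 against 807 ± 86 reads (-0.57, p = 0.0120). In sham mice Lrrtm4 was lower with memantine, at 619 ± 106 against 791 ± 114 reads (-0.36, p = 0.00420). The interaction was called for Lrrtm4 (0.55 ± 0.17, p = 0.00212, adjusted p = 0.999 by limma) and, among the auxiliary genes, for Prrt2 (-0.26, p = 0.0422).

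Members differed in which genes they varied with between libraries of the same group. These are Pearson correlations of log2 sums over 40 libraries with group means removed, which share library depth and tissue composition, and they are descriptions. Among members the highest were Nptxr with Cacng3 (0.65), Nptxr with Cnih2 (0.62) and Nptx1 with Cacng3 (0.60), and the lowest was Gria4 with Nptx1 (-0.56). Nptx1 was nearest to Slc17a7 (0.90), the vesicular glutamate transporter of cortical excitatory neurons, and to Tbr1 (0.89) and Nos1ap (0.88). Nptxr was nearest to Plxnd1 (0.84), Trp53i11 and Cadm3 (both 0.81), and Cacng3 to Tmem8b, Arhgdia (both 0.82) and Hcfc1 (0.81).

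The subunits had other neighbours. Gria1 was nearest to Mctp1 (0.76), Pcdh17 (0.74) and Slc7a14 (0.73), Gria3 to Slc39a10 (0.84), Cnksr2 (0.83) and Ryr2 (0.82), and Gria4 to Ttll7 (0.78), Myo6 (0.74) and Pla2g7 (0.73). Cnih2 was nearest to Ddn (0.83), the dendritic protein dendrin, and to Icam5 (0.80) and Mprip (0.78). Nptx2 had lower values, with Coro1a (0.63), Brinp1 (0.60) and Nrn1 (0.58) nearest. Gria2 had the lowest: no gene outside the members exceeded 0.48, reached by Dapk1 and Psmd8, with Fstl5 at 0.47.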

How the data were processed

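Cortical RNA of 40 libraries in 4 groups of 10 was analysed from the 1 deposited table. According to the study's methods, ribosomal RNA was depleted, stranded libraries were sequenced as paired ends, reads were aligned to mm10 with STAR, eXpress assigned counts to RefSeq transcripts and DESeq2 normalised them, whereas the submitters' processing notes name HISAT2, StringTie and mm10. The deposited values are log2-like variance-stabilised values made by the authors. Their lowest level (10.36) and whole-number steps gave back the normalised and raw counts (100% of values under 5000 whole within 0.01 read). Assignment of shared reads to forms of a gene is an estimate, so single forms are less certain than sums. Raw reads in the listed transcripts were 13322404 to 17529644 per library, with size factors of 0.859 to 1.141. Counting error alone is 4.27% for the lowest mean count in the table, 549.2.

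Symbols were assigned to 99.62% of 6831 transcripts, leaving 26 without one. limma 3.58.1 (R 4.3.3) was fitted with 1 term per group and trended empirical Bayes on the deposited values, on log2(sum + 1) of 5875 rows and on the log2 ratio of 1674 transcripts to the other forms, each count plus 10. All tests were two-sided. Permutation tests used 100000 resamples, so the smallest p they can give is 1e-05, and were not adjusted over members. Scripts were tested on simulated data. Replicates of a group differed by far more than sampling noise, and no pair of libraries was identical.

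The members and all gene lists were chosen with earlier results of these data known. Every member and every Gria transcript was named. In the other lists up to 4 genes per comparison with the smallest unadjusted p-values under 0.05 were named, and for each member the 3 most correlated genes. A result of the trans-synaptic organiser list is not reported here. Comparisons share libraries, since each group enters several of them. Shares are of counts and not of counts per kilobase, because the lengths of some paired gene models were ambiguous. Alternatives were log2 counts, median centring, quantile normalisation, a pseudocount of 50 for sums, a minimum mean count of 1000, only the groups compared, library weights, a striatal marker covariate, a replicate block and each library left out. An oligodendrocyte marker covariate and leaving out the low Gria2 libraries were added after seeing the data.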

Additional observations from a re-analysis of the deposited data

Results flagged for a closer look

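Of 88 groups of 10 libraries tested for a single far value (9 member sums and the 13 transcripts of genes with several forms, in 4 groups each), 8 held one. For independent, normally distributed values about 1 in 20 groups would hold one. These groups are not independent, because sums were tested beside their own transcripts, so the 8 cannot be set against that rate. Saline HF-HI replicate 2 accounted for 4 of the 8: its Gria2 sum was 15206 against 19812 for the next library, NM_001083806 was 4092 against 7449, NM_013540 was 4147 against 6849, and its Nptxr sum was 8578 against 6850. This is the saline HF-HI library in the low Gria2 band. Saline HF-HI replicate 1 had a Gria1 sum of 9816 against 8578 for the next. Saline sham replicate 5 had an Nptxr sum of 12564 against 8698. Among memantine HF-HI libraries, replicate 5 had a Gria4 sum of 3178 against 3520 for the next, and replicate 8 had 247 reads of Gria1 NM_001252403 against 1330.

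The interaction test called 2 genes of the wider pathway at an unadjusted p-value under 0.05. At an adjusted p-value under 0.1 it called 0 of all 5875 sums, so a difference between drugs was not shown. Lrrtm4 had an interaction of 0.55 on the log2 scale (p = 0.00212) and Prrt2 of -0.26 (p = 0.0422), both with adjusted p = 0.999 by limma. These were 1 of 17 trans-synaptic organisers and 1 of 17 auxiliary and assembly genes, with 0 called of 29 trafficking, 14 phosphorylation and 2 editing genes, where 3.59% of all sums were called. No cause was tested.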

How the results depend on the processing

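No result reversed under any alternative. The count of member transcripts called between saline HF-HI and saline sham was 0 and became 1 under log2 counts, median centring, quantile normalisation, the minimum mean of 1000, only the groups compared, the striatal covariate and the replicate block. The 1 was Gria2 NM_001039195, whose p first lay just above 0.05, except under the striatal covariate, where it was Nptx2. Between memantine HF-HI and memantine sham the 2 called transcripts became 1 under quantile normalisation and under the minimum mean. The minimum mean of 1000 removes Nptx2, Cnih2 and Cacng3 by construction, and it took the transcripts called between drugs after impact from 2 to 0 and the sums called from 2 to 0, and the sums called between memantine HF-HI and memantine sham from 1 to 0. The sums called between drugs in sham mice were 2 in place of 1 under quantile normalisation, library weights and the replicate block, Cacng3 being added. For the interaction 1 sum (Gria1) in place of 0 was called under library weights and the oligodendrocyte covariate.

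With each library left out in turn, the transcripts called ranged over 0 to 1, 1 to 3, 1 to 5, 0 to 4 and 0 to 1 in the order of saline impact, memantine impact, drugs after impact, drugs in sham and interaction. The sums called ranged over 1 to 2, 1 to 1, 1 to 3, 0 to 3 and 0 to 1, and the shares over 0 to 0, 0 to 2, 0 to 1, 0 to 2 and 0 to 1. Nptx2 kept its calls in every such fit (highest p = 0.0124 and 0.0217 for the sums), and Gria1 after saline impact did too (highest p = 0.0146). Library weights and the oligodendrocyte covariate gave that Gria1 change an adjusted p = 0.0798 and 0.0618 by limma. Without the low Gria2 libraries, the Nptx2 changes were -0.29 (p = 0.0225) and -0.26 (p = 0.0280), Cnih2 was 0.19 (p = 0.0263) and Gria1 after saline impact was -0.12 (p = 0.0172), while the Gria1 flop transcript was -0.10 (p = 0.130) and its share -0.42 (p = 0.0601).

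Same-numbered replicates did not deviate together: correlations over transcripts ran from -0.130 to 0.160 and at most 2 of 10 pairs in a comparison exceeded 0.1, so the numbers were not taken as pairs. The replicate block changed no call of a member other than Gria2 NM_001039195 after saline impact (p = 0.0280), Cacng3 between drugs in sham mice (p = 0.0374 for the sum, 0.0377 for the transcript) and the Gria2 sum between drugs after impact (p = 0.0493), all of them gained. That Gria2 sum was also called with library weights (p = 0.0394) and the striatal covariate (p = 0.0415), under which Nptx2 after saline impact was called too (p = 0.0350). Limits: counts were recovered from variance-stabilised values, forms rest on estimated read assignment, and striatal markers moved with Gria1.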
